A study of Mus musculus with 16 samples.

Results

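The genes described here are Dmd, Utrn, Dag1, Sgca, Sgcb, Sgcd, Dtna and Nos1, which encode dystrophin, its paralog and the proteins bound to it. They were taken by symbol from the count and FPKM tables, which held 8 of the 8 symbols among 35415 genes. FPKM is the read count of a gene divided by the length of its model and by the library total. All 8 passed the filter on low counts, which left 14749 genes for testing.

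PolyA RNA was sequenced from the gastrocnemius, a calf muscle, of male BALB/c mice that were 8 weeks old at purchase. BALB/c is an inbred laboratory strain, and all animals are labelled wild type. The C (control) group received saline under the skin of the hind limb and was not trained. The E (exercise) group received saline and over 4 weeks ran on a treadmill 6 days/week, with a daily run of 60 min at a speed of 14 m/min. The T group was inoculated at the same site with CT26 cells, a colon carcinoma line from this strain, and was not trained. The TE group received CT26 cells and the same training. Untrained mice were placed on a treadmill that did not move. Each of the 4 groups holds 4 mice, named by group and number (C1 to C4 and so on), and all 16 libraries carry the same batch label. A tumor in the hind limb is close to the muscle studied, and the labels do not say from which side the muscle was taken.

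Dystrophin is a long rod-shaped protein under the muscle fiber membrane that ties the actin cytoskeleton to a complex of membrane proteins. Dystroglycan, the product of Dag1, spans the membrane and binds laminin outside the fiber, and the sarcoglycans hold dystroglycan in place. Dystrobrevin lies on the inner face of the complex, where neuronal nitric oxide synthase, the product of Nos1, is anchored and makes nitric oxide during contraction. Utrophin resembles dystrophin and in adult fibers is found mainly at the neuromuscular junction, and loss of dystrophin or of a sarcoglycan causes muscular dystrophy.

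In GRCm39, the build of the deposited tables, Dmd lies at chrX:81992474-84249747 on the plus strand and has 79 exons in its canonical GENCODE transcript. Utrn (chr10:12257537-12745265, minus strand) has 75 exons and Nos1 (chr5:117918971-118096905, plus strand) has 29. Dag1 lies at chr9:108081833-108152333, Sgca at chr11:94853605-94867273, Sgcb at chr5:73790086-73805133 and Sgcd at chr11:46787080-47879796, all on the minus strand. Dtna lies at chr18:23548183-23793477 on the plus strand. Dmd (102 bases), Nos1 (454), Dtna (338) and Utrn (62) share exon bases with predicted Gm genes on the opposite strand. The strand setting of the counting is not given in the sources used here, so reads in those bases cannot be assigned to 1 strand.

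A gene count adds up transcripts from every start site, so the windows before the starts are shown for the 3 genes on which the comparisons below turn. Each is the 250 bases before a start site in GRCm39, with matches to 3 motifs in capitals. The E-box (CANNTG) is bound by myogenic regulators, the CArG box by serum response factor, and the N-box (TTCCGG, searched on both strands) by Ets factors.

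Dmd, canonical start, chrX:81992224-81992473, plus strand: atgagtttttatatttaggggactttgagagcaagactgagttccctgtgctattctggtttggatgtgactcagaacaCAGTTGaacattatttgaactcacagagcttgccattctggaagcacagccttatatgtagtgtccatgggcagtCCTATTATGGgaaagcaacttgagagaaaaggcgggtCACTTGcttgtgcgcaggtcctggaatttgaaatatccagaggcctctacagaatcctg
Dmd, start of short transcripts, chrX:84091651-84091900, plus strand: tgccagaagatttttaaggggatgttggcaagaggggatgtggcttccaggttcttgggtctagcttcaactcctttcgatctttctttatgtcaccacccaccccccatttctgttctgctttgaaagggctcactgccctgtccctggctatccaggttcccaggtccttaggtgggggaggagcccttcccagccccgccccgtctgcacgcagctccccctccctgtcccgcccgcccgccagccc
Nos1, canonical start, chr5:117979585-117979834, plus strand: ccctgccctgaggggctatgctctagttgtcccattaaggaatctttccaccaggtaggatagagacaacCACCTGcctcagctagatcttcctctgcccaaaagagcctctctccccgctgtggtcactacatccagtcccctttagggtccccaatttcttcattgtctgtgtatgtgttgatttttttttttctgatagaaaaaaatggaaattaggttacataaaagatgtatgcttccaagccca
Utrn, canonical start, chr10:12745266-12745515, minus strand: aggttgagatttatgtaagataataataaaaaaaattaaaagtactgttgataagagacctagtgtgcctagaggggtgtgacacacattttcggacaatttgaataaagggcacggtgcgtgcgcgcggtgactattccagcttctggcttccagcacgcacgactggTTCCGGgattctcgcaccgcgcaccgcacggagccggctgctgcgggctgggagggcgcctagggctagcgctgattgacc

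The canonical Dmd window held a CArG box that begins 96 bases before the start and E-boxes at 171 and 59 bases before it. The window of the short Dmd transcripts, a RefSeq entry that begins 2099 kb further along the gene, held no match to the 3 motifs. The Nos1 window held 1 E-box, and the Utrn window held 1 N-box that begins 81 bases before the start and no E-box. A window before another Utrn start, from RefSeq and 7.79 kb further into the gene, held 7 E-boxes and no N-box and is not shown. In the windows of the same length before 32851 RefSeq starts, which need not be the GENCODE canonical ones, 66.2% held an E-box, 1.47% a CArG box and 12% an N-box. These matches are a description of the letters in the windows, and the counts do not say which start a transcript came from.

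The 8 genes covered a wide range of levels. On the FPKM scale the mean over the 16 libraries was 102 for Sgca, which encodes alpha-sarcoglycan, 52.1 for Dag1 and 34.7 for Sgcb, which encodes beta-sarcoglycan. It was 11.2 for Sgcd (delta-sarcoglycan), 9.63 for Dtna (alpha-dystrobrevin), 5.78 for Dmd, 4.56 for Nos1 and 2.96 for Utrn. The levels stood in this order in 14 of 16 libraries, the exceptions being C2, where Dtna was above Sgcd, and E1, where Nos1 was above Dmd. Lengths matter for this order, since the FPKM values imply a gene length of 10800 bases for Sgcd against 1617 in its canonical transcript, 6.68 times as long. With canonical lengths in place of the deposited ones, the mean level of Sgcd became 74.9, second to Sgca at 119, and that of Utrn became 4.95, above Nos1 at 4.33. Levels of 1 gene across groups do not depend on this choice.

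**Figure D1:**
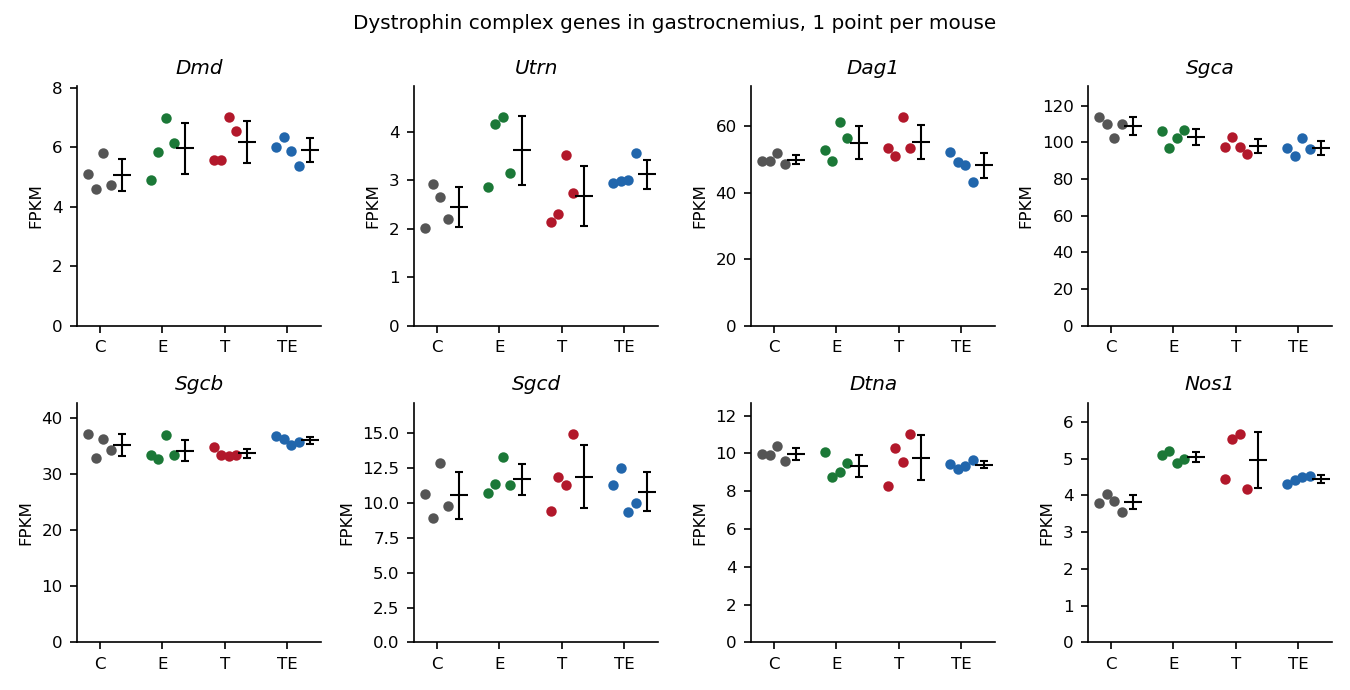
FPKM (vertical axes, from 0) of each gene in each mouse, by group, with the mean and SD of the 4 mice to the right of the points. The 4 C mice lie lowest for Nos1 (3.56 to 4.03), whereas for Sgca, Sgcb, Sgcd, Dtna and Utrn neighbouring groups overlap.

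Sgcb varied least across all libraries (CV 4.59%) and Utrn most (CV 22.4%). The FPKM of Utrn ran from 2.02 in C1 to 4.30 in E3, a 2.13-fold range, and that of Dmd from 4.61 in C2 to 7.01 in T3. Library totals were 35628211 to 37635741 counts, and the lowest count of any of the 8 genes in a library was 1251, for Nos1 in C4. In some groups the mice differed by no more than counting error gives, as for the Nos1 counts in E (1800 ± 29.1, SD, n = 4). The labelled tissue was checked with 10 myofiber markers, all detected in every library, whose summed level was 117521 to 143818 CPM (counts relative to the TMM-scaled size of each library).

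The T group was compared with the C group to ask what the tumor did to these genes in untrained muscle. Nos1 was the 1 gene of the 8 that passed. Its CPM was 38.3, 38.5, 36.7 and 34.4 in C1 to C4 and 45.5, 54.5, 54.4 and 41.0 in T1 to T4. The groups did not overlap, with T2 and T3 well above T1 and T4. Nos1 rose 1.32-fold (log2 fold change 0.40, SE 0.0812, 95% interval 0.231 to 0.573, adjusted p = 0.0335 by the quasi-likelihood test of edgeR, Benjamini-Hochberg adjustment). Among the 14749 genes, 100 passed in this comparison (0.678%), and Nos1 ranked 51st by p. The call depends on the fit. Nos1 missed the threshold without any 1 of the 4 C mice or without T3 (adjusted p = 0.0502 to 0.139 by edgeR). It also missed it when only the C and T libraries were fitted (adjusted p = 0.147) and with a gene length offset (0.0592). The same held on log2 FPKM with limma (0.0976 and 0.106) and without C3, E1 and TE4 together (0.105). It passed in 11 of the 16 fits with 1 library left out, and its log2 value was 0.34 to 0.48 over these 16. It also passed with DESeq2 (adjusted p = 0.00113), which called 421 genes. By edgeR it passed with DESeq2 size factors (0.0323) and without the filter on low counts (0.0221).

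Dmd was next in size. Its CPM was 113.7, 97.6, 122.5 and 101.6 in C1 to C4 and 126.5, 122.0, 149.0 and 143.0 in T1 to T4, so that only C3 reached just into the range of T. The difference of 1.24-fold (log2 0.31, SE 0.102, interval 0.0977 to 0.526) did not pass (adjusted p = 0.171 by edgeR), and without T3 and T4 it was 0.19 on the log2 scale. For Dag1 the CPM was 291 to 307 in C and 310 to 371 in T, groups that did not overlap in CPM but lay close and overlapped in FPKM, where C3 was at 51.8 and T2 at 51.0, with a log2 difference of 0.17 (SE 0.0748) and an adjusted p of 0.313 by edgeR. Sgcd (0.20), Utrn (0.15), Sgca (-0.13), Sgcb (-0.03) and Dtna (less than 0.01 in size) did not pass either, and single mice carried some of these values, since Sgcd was at 0.07 without T4 and Utrn at 0.01 without T3. At an unadjusted p under 0.05 stood Dmd, Dag1 and Nos1, 3 of 8 genes against 14.2% of all genes tested, and groups not overlapping in CPM were found for 2 of 8 genes against 6.86% of all. In bulk muscle, fewer cells of a type and less RNA per cell cannot be told apart.

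Markers of other cells also differed between these groups. The summed level of 9 neutrophil markers was 9.12 to 51.6 CPM in T against 1.24 to 15.4 in C. Of these, 5 of 8 tested genes passed as higher in T, against 0.678% of all genes. That of 8 Schwann cell markers was 323 to 660 against 462 to 1029 CPM, with 0 of 8 passing, all 8 below 0 and 5 at an unadjusted p under 0.05. The 10 myofiber markers summed to 131265 to 143818 CPM in T and 124406 to 135801 in C, with 8 of 10 values above 0, 2 at an unadjusted p under 0.05 and 0 passing. Of 8 endothelial markers, whose sums were 634 to 863 CPM in T and 618 to 778 in C, 1 passed as lower and 3 were higher at an unadjusted p under 0.05. The 10 lymphocyte markers summed to at most 1.32 CPM in T, with 7 of the 10 at 0 in at least 1 T library, and to 29.6 in C3, 19.6 in E1 and 94.0 in TE4. All 10 were lower in T than in C, with 7 at an unadjusted p under 0.05 and 0 passing. T3 and T4 had the highest summed smooth muscle markers (4502 and 4778 CPM against 3496 to 3966 in the other libraries), and T4 the highest sum of regeneration markers (249 against 99.8 to 138). The part of these cells in the Nos1 result was not tested. Without T3 and T4 the log2 fold change of Nos1 was 0.43 (adjusted p = 0.0467 by edgeR), and that fit does not test the part of these cells either.

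**Figure D2:**
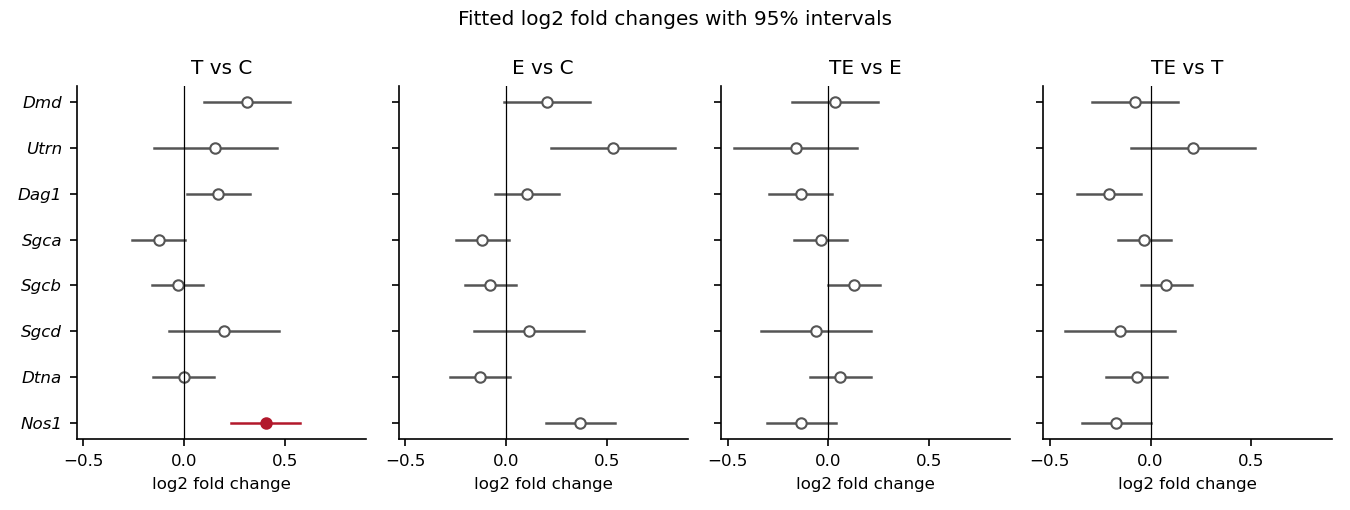
Log2 fold change (horizontal axes) of each gene in 4 comparisons, with 95% intervals from edgeR's fit; the filled point passed an adjusted p of 0.05 and open points did not. Nos1 in T vs C is the filled point, at 0.40, and Nos1 and Utrn in E vs C lie at 0.37 and 0.53.

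The tumor comparison was repeated in trained mice. Between TE and E, 0 of the 8 genes passed and 0 had an unadjusted p under 0.05, against 0.231% and 9.23% of all genes by edgeR. Nos1 was 41.6, 44.0, 45.0 and 43.2 CPM in TE1 to TE4 and 47.8, 49.9, 45.1 and 47.8 in E1 to E4. The TE mice lay just below the E mice without overlap, which was true of 1 of 8 genes and of 6.62% of all, with a log2 difference of -0.13 (interval -0.304 to 0.0368). Dmd differed by 0.03 on the log2 scale (interval -0.180 to 0.247), a value that turned to -0.01 on log2 FPKM, and Sgcb by 0.13 (SE 0.0607). Taken over both training states, the tumor main effect was 0.17 for Dmd (SE 0.0718, adjusted p = 0.279 by edgeR) and 0.13 for Nos1 (SE 0.0573, adjusted p = 0.293 by edgeR). None of the 8 genes passed for that effect, against 1.36% of all, and the same genes, Dmd and Nos1, were the 2 with an unadjusted p under 0.05, against 14.2% of all.

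Training without a tumor was examined by comparing E with C. None of the 8 genes passed by edgeR, against 0.0881% of all genes tested (13 genes, all higher in E), and 2 of 8, Utrn and Nos1, had an unadjusted p under 0.05, against 14.2% of all. Utrn was 47.4, 65.0, 58.7 and 49.7 CPM in C1 to C4 and 62.7, 92.6, 92.6 and 70.4 in E1 to E4. E2 and E3 stood well above every C mouse, while E1 lay below C2. The difference was 1.44-fold (log2 0.53, SE 0.145, interval 0.220 to 0.834, adjusted p = 0.146 by edgeR), the largest among the 8 genes in any of the 4 pairwise comparisons. Nos1 was higher in each E mouse than in each C mouse, as was 1 of 8 genes against 9.08% of all with groups not overlapping in either direction, with a log2 difference of 0.37 (SE 0.0811, interval 0.196 to 0.538, adjusted p = 0.0867 by edgeR, rank 50). Both genes passed with DESeq2 (adjusted p = 0.031 for Utrn and 0.00821 for Nos1), which called 236 genes in all. By edgeR both passed without T3 and T4 (0.049 and 0.019), where 193 genes passed. Nos1 also passed when only C and E were fitted (0.0258), where 183 genes passed.

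Markers of connective tissue and some other cells also stood higher in the E mice. The 7 tendon markers summed to 153 to 256 CPM in E against 76.7 to 92.4 in C, 74.4 to 130 in T and 79.5 to 114 in TE, and the 8 fibroblast markers to 1351 to 1728 CPM against 925 to 1277 in C. Between E and C, 3 of 7 tendon markers passed as higher, against 0.0881% of all genes, and 0 of 8 fibroblast markers passed while 8 had an unadjusted p under 0.05. From E1 to E4 the tendon sums were 153, 256, 162 and 173 CPM and the fibroblast sums 1351, 1728, 1692 and 1456 CPM. Utrn in the same mice was 62.7, 92.6, 92.6 and 70.4 CPM. The summed level of 8 endothelial markers was 771 to 833 CPM in E and 618 to 778 in C. The 7 adipocyte markers summed to 454 to 772 CPM in E and 424 to 577 in C, and 7 of 7 had a value above 0 (median 1.44 on the log2 scale), with 4 at an unadjusted p under 0.05 and 0 passing. The 6 smooth muscle markers summed to 3559 to 3811 CPM in E and 3496 to 3838 in C, with 5 of 6 higher at an unadjusted p under 0.05 and 0 passing. The part of these cells in the Utrn difference was not tested.

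Dmd differed by 0.20 on the log2 scale between E and C (SE 0.102; 0.13 without E3), Dag1 by 0.10 (0.05 without E3) and Sgcd by 0.11 (0.03 without C2 and 0.21 without C3). Sgca (-0.12, SE 0.0625; -0.08 without C1), Sgcb (-0.08, and -0.03 without C1) and Dtna (-0.13, SE 0.071) had values below 0, and 0 of these 6 genes had an unadjusted p under 0.05.

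Training in tumor-bearing mice was examined by comparing TE with T. By edgeR 0 of the 8 genes and 0 of all 14749 (0%) passed, while 867 genes (5.88%) had an unadjusted p under 0.05 and DESeq2 called 7. Dag1 was the 1 of the 8 at an unadjusted p under 0.05. Its CPM was 338, 310, 371 and 325 in T1 to T4 and 311, 301, 298 and 254 in TE1 to TE4. TE4 was the lowest of all 16 libraries and T3 the highest, and TE1 lay above T2. The log2 difference was -0.21 (SE 0.0748, interval -0.363 to -0.048, adjusted p = 0.758 by edgeR) and -0.14 without TE4. TE4 also had the highest summed lymphocyte markers (94.0 CPM), and 10 of 10 of these had a value above 0 in TE vs T, with 9 at an unadjusted p under 0.05 and 0 passing; their part in the Dag1 difference was not tested. None of the 8 genes had groups that did not overlap, against 2.58% of all. Nos1 differed by -0.17 (SE 0.0809; -0.11 without T2), Sgcd by -0.15 (-0.02 without T4) and Dmd by -0.08 (-0.02 without TE4). Utrn differed by 0.21 (interval -0.0963 to 0.516), with 0.13 without T1 and 0.35 without T3. Without T3 and T4 the value for Dmd turned to 0.05.

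Over both tumor states, the training main effect was 0.37 for Utrn on the log2 scale (SE 0.103, interval 0.152 to 0.585, adjusted p = 0.251 by edgeR). The other 7 genes lay between -0.10 (Dtna, SE 0.0502) and 0.10 (Nos1, SE 0.0573). None of the 8 passed, against 0.00678% of all (1 gene), and 1 of 8, Utrn, had an unadjusted p under 0.05, against 10.8% of all. Utrn passed for this effect without T3 (adjusted p = 0.0469 by edgeR), where 104 genes passed. It also passed without T3 and T4 together (0.0333), where 119 genes passed.

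Whether the tumor effect differed between trained and untrained mice was tested by the interaction, the difference between TE and E minus that between T and C. For Nos1 it was -0.54 on the log2 scale (SE 0.115, interval -0.777 to -0.294), rank 6 of 14749 genes by p, but it did not pass (adjusted p = 0.389 by edgeR; 0.0244 with DESeq2). For Dag1 it was -0.31 (SE 0.106, adjusted p = 0.438 by edgeR). These were the 2 of 8 genes with an unadjusted p under 0.05, against 9.21% of all genes, and 0 genes (0%) passed by edgeR while 20 passed with DESeq2. Markers of other cells had interaction values of their own, of which 0 passed. The 10 lymphocyte markers all lay above 0 (9 at an unadjusted p under 0.05), while 8 of 8 fibroblast (5), 6 of 7 tendon (6), 7 of 7 adipocyte (0) and 6 of 6 smooth muscle markers (4) lay below 0, and their part in the Nos1 and Dag1 values was not tested. Utrn (-0.32, SE 0.205), Dmd (-0.28, SE 0.144) and Sgcd (-0.26, SE 0.183) had values of similar size with wider intervals, and single mice carried part of them, since Utrn was at -0.17 without T3 and Sgcd at -0.13 without T4, while Sgcb (0.16), Sgca (0.09) and Dtna (0.06) had positive ones.

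The groups therefore stood in different orders for different genes. For Nos1 the mean CPM was 37.0 ± 1.90 in C, 43.4 ± 1.46 in TE, 47.7 ± 1.97 in E and 48.8 ± 6.69 in T (SD, n = 4 each), where C and TE and also TE and E were apart and E and T overlapped. All 4 C mice were below all 12 other mice, as for 69 of the genes tested (0.468%). For Utrn the order was C (55.2 ± 8.15), T (61.4 ± 12.5), TE (71.1 ± 5.49) and E (79.6 ± 15.4), and each neighbour in it overlapped the next. For Dmd the order was C (109 ± 11.4), E (125 ± 17.0), TE (128 ± 10.8) and T (135 ± 12.9), also with overlap at each step. Sgca stood the other way round, with C highest at 191 CPM and E, T and TE at 176, 175 and 172.

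Relative to Dmd, on the FPKM scale, Utrn stood at 0.487 ± 0.101 in C, 0.604 ± 0.0821 in E, 0.429 ± 0.0502 in T and 0.532 ± 0.0867 in TE (SD, n = 4 each). The ratio was highest in E2 (0.709) and lowest in T1 (0.383), and C (0.396 to 0.632) and TE (0.469 to 0.660) each overlapped every other group. The ratio of Nos1 to Dmd overlapped between all groups, with means of 0.758 in C, 0.858 in E, 0.808 in T and 0.756 in TE. That of Sgca to Dmd was 21.7 ± 2.81 in C and 17.5 ± 2.93 in E, and it ran from 13.9 to 18.4 in T and from 14.5 to 17.9 in TE. Between the sarcoglycans, the ratio of Sgcb to Sgca was 0.298 to 0.392 over all 16 libraries. These ratios are descriptions and were not tested.

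**Figure D3:**
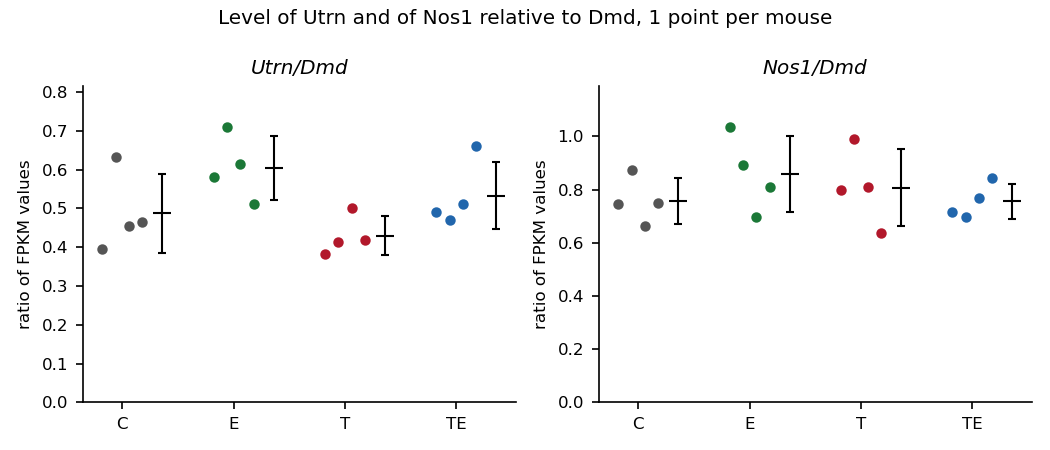
Ratio of the FPKM of Utrn (left) and of Nos1 (right) to that of Dmd in each mouse (vertical axes, from 0), by group, with the mean and SD of 4 mice. The Utrn ratio has its highest mean in E (0.604) and its lowest in T (0.429), and the Nos1 ratio overlaps between groups.

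Across the 16 libraries, the log2 CPM of Dmd varied with that of Sgcd (Pearson r = 0.68) and of Dag1 (0.62), and after the group means were removed the values were 0.67 and 0.69. Sgca varied against Utrn (-0.68, and -0.66 within groups) and against Dmd (-0.58, and -0.34 within groups). Nos1 and Dmd had an r of 0.45 over all libraries and -0.11 within groups. The genes with the pattern most like that of Dmd, by r over the 16 libraries among all genes tested, were Cep350 (0.94), which encodes a large centrosomal protein, Ago2 (0.93), a protein of small RNA silencing, and Dst (0.93), which encodes the giant cytolinker dystonin. For Utrn they were Sh3bgrl (0.96), Atl3 (0.94), which shapes the endoplasmic reticulum, and Iqgap1 (0.93), a cytoskeletal scaffold. For Nos1 they were Ppm1b (0.83), a protein phosphatase, Zfp770 (0.81) and Fam168a (0.80). For Sgcd they were Mef2c (0.87), a muscle transcription factor, Rnf214 (0.85) and Rptor (0.81), a subunit of the growth regulator mTORC1. For Dag1 they were Prrc2a (0.90), Dyrk1a (0.89), a protein kinase, and Rab14 (0.88). For Sgca they were Psmb2 (0.87), a proteasome subunit, Fxyd1 (0.86), which encodes phospholemman, and Ndufaf6 (0.84). For Sgcb they were H6pd (0.85), Csnk2a1 (0.84), a kinase subunit, and Trdn (0.83), which encodes triadin of the calcium release complex. For Dtna they were Cep20, Prepl (both 0.80) and Nlk (0.78). The points share their libraries, and the highest of so many values is high by selection, so these names are descriptions.

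Of 12 other genes of the complex and its paralogs, 9 were tested and 0 passed in any comparison. On the FPKM scale Cav3, the caveolin of muscle, was at 47.2 on average. Sgcz was at 0 counts in every library, Sntg1 had at most 1 count and Sntg2 at most 8. Sspn, which encodes sarcospan, was lower in T than in C (9.51 ± 0.685 against 11.3 ± 0.452 FPKM, SD, n = 4 each), a log2 difference of -0.22 (SE 0.0763) that did not pass (adjusted p = 0.193 by edgeR). It differed by -0.22 between E and C as well (adjusted p = 0.216 by edgeR). Sgce (epsilon-sarcoglycan) and Drp2, which encodes a shorter relative of dystrophin, had tumor main effects of -0.13 and -0.37 that did not pass. The median log2 difference of the 9 genes between T and C was close to 0, as was that of all genes. That of the 8 genes described here was 0.16, with 5 above 0 and 3 below. Their median was -0.05 between TE and E and 0.04 for the tumor main effect.

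Outside the fiber, 2 of 16 extracellular ligands of dystroglycan and other basement membrane genes, all tested, passed between TE and E, against 0.231% of all genes, and 13 had an unadjusted p under 0.05, against 9.23% of all. Col6a1 and Col6a2, which encode chains of collagen VI, fell in TE relative to E, at -0.66 and -0.76 on the log2 scale (SE 0.101 and 0.115, adjusted p = 0.00698 for both by edgeR). Without C3, E1 and TE4 the call for Col6a1 was lost (adjusted p = 0.0573 by edgeR) at a log2 value of -0.67. Col6a1 was at 33.7 ± 2.56 FPKM in E and 20.7 ± 3.01 in TE, with 24.6 ± 3.00 in C and 18.9 ± 2.46 in T (SD, n = 4 each). The tumor main effect passed for these genes (adjusted p = 0.00135 for both by edgeR) and for Nid2, a nidogen of the basement membrane (-0.53, adjusted p = 0.0102 by edgeR). That is 3 of 16 genes, against 1.36% of all, and 14 of 16 had a value below 0. In T vs C alone 8 had a value above 0 and 8 below, with a median close to 0, and 0 passed. Between E and C, 16 of 16 had a value above 0, with a median of 0.37, 9 had an unadjusted p under 0.05, against 14.2% of all genes, and 0 passed. The main effect and the TE vs E values both use the E mice. The summed fibroblast and tendon markers given above stood highest in the E mice. Between TE and E, 3 of 7 tendon markers passed as lower and 6 were lower at an unadjusted p under 0.05. Of 8 fibroblast markers, 5 were lower at that level and 0 passed. For the tumor main effect 2 of 7 tendon and 1 of 8 Schwann cell markers passed as lower. The part of these cells in the matrix gene values was not tested.

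Among 15 tested genes of nitric oxide synthesis and signaling besides Nos1, Nos2, the inducible synthase, fell with the tumor. It was at 2.25 ± 0.657 FPKM in C and 0.921 ± 0.370 in T, a log2 fold change of -1.25 (SE 0.279, adjusted p = 0.0476 by edgeR), and its tumor main effect was -1.07 (adjusted p = 0.0092). The T vs C call was lost when any 1 of 11 libraries was left out, and with the C and T libraries fitted alone (adjusted p = 0.123), the replicate block (0.0819), limma (0.0788 and 0.0837), without C3, E1 and TE4 (0.119) and without T3 and T4 (0.162). The tumor main effect passed without each of the 16 but not without C3, E1 and TE4 together (0.0831). Nos3, the endothelial synthase, was at 5.43 FPKM on average and did not pass. Calm2, 1 of the calmodulin genes whose product activates these enzymes, was lower in T than in C by 0.49 on the log2 scale (-0.49 as T minus C) without passing (adjusted p = 0.0508 by edgeR). Ddah2, whose product degrades an inhibitor of the enzymes, had a tumor main effect of -0.31 (adjusted p = 0.104 by edgeR).

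Of 14 tested genes of membrane repair and caveolae, Trim72 and Cav1 passed, in opposite directions, in T vs C and for the tumor main effect, against 0.678% and 1.36% of all genes. Trim72, a muscle protein that starts the resealing of membrane wounds, was at 48.6 ± 5.49 FPKM in C and 65.0 ± 8.62 in T and rose by 0.44 on the log2 scale (SE 0.0914, adjusted p = 0.0347 by edgeR). The call was lost without T3 and T4 together (0.29, adjusted p = 0.334) without C3, C4, E4, T3 or T4 alone, with the C and T libraries fitted alone (0.136), with the replicate block (0.0607), with limma (0.0804 and 0.0883) and without C3, E1 and TE4 (0.0953). Cav1, which encodes the caveolin of endothelium and other nonmuscle cells, was at 147 to 178 FPKM in C and 118 to 131 in T and fell by 0.41 on the log2 scale (SE 0.0596, adjusted p = 0.00412 by edgeR). It passed without each of the 16 libraries but not without T3 and T4 together (adjusted p = 0.0587 by edgeR), where its log2 value was -0.37. Of the 8 endothelial markers, 1 passed as lower in T vs C and 2 for the tumor main effect, while 3 and 2 were higher at an unadjusted p under 0.05, and their part in the Cav1 values was not tested. Both also passed for the tumor main effect, at 0.31 and -0.32, and for Trim72 that call was lost with the block (adjusted p = 0.0509), limma (0.068 and 0.0692) without C4 (0.0612) or TE3 (0.056) alone and without either set of libraries (0.06 and 0.0896). Ehd2, a protein of the caveolar neck, had a tumor main effect of -0.17 (adjusted p = 0.196 by edgeR).

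In the other lists 0 genes passed in any of the 7 contrasts. Of 17 tested glycosylation genes, whose enzymes build the laminin-binding sugars of dystroglycan, Dolk had -0.23 and Gmppb -0.46 between T and C, with adjusted p-values of 0.224 and 0.297 by edgeR, and Dpm1 a training main effect of -0.47 (adjusted p = 0.384 by edgeR). Of 13 genes of the integrin costamere, the second link between cytoskeleton and matrix, Pxn (paxillin, 0.27) and Flnc (filamin C, 0.70) were the foremost in T vs C, with adjusted p-values of 0.0741 and 0.109 by edgeR, and Ilk had a tumor main effect of -0.13. Of 19 tested cytolinkers, Ank3 had 0.29 in T vs C, Des (desmin) a tumor main effect of 0.21 and Krt19 one of -1.13 with an SE of 0.417. Of 11 tested genes of the neuromuscular junction, where utrophin is concentrated, Ache was lower in T than in C by -0.36 (adjusted p = 0.179 by edgeR), and Chrne and Chrnb1, subunits of the acetylcholine receptor, had training main effects of -0.18 and -0.27 (adjusted p = 0.425 and 0.429 by edgeR).

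**Figure D4:**
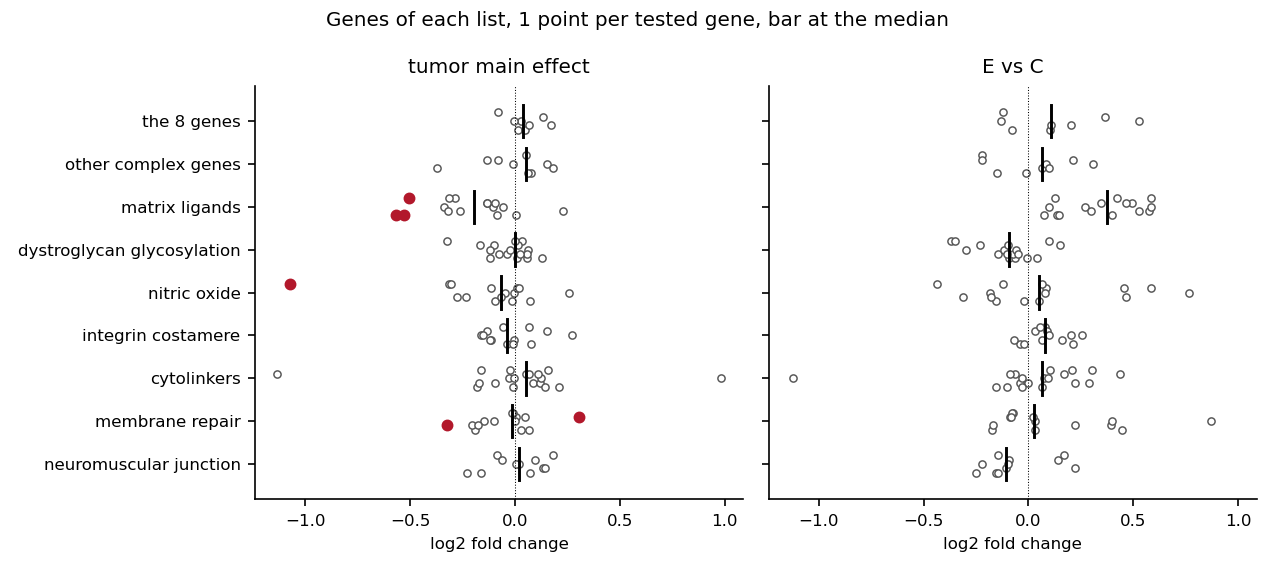
Log2 fold change (horizontal axes) of each tested gene in the 8 genes and 8 related lists, for the tumor main effect (left) and E vs C (right); filled points passed an adjusted p of 0.05 and the bar is the median of a list. For the tumor main effect the filled points are Col6a1, Col6a2 and Nid2 (matrix ligands), Nos2 (nitric oxide) and Cav1 and Trim72 (membrane repair), and in E vs C the matrix ligands all lie above 0.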

How the data were processed

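RNA from the gastrocnemius of 16 mice was analysed, 4 in each group, with groups taken from the sample labels. The authors trimmed reads with fastp 0.20.1, aligned them to GRCm39 with HISAT2 2.1.0 and deposited counts per gene from HTSeq 0.11.2 without normalization (versions per the submitters' processing notes). The FPKM values, also deposited, equal a count over gene length and total. The annotation release and strand setting are not given in the sources used here, and the labels and the paper name different versions of the library kit. The tables held 0 columns of other samples. No replicates were alike within sampling noise. Library totals were 35628211 to 37635741 counts, so that 3 counts were at most 0.0842 CPM, and PCR copies could not be separated from molecules.

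Genes passing filterByExpr were tested with edgeR 4.0.16 (R 4.3.3), with TMM factors and the quasi-likelihood test on all 16 libraries, 1 coefficient per group and 7 contrasts. Two-sided p-values were adjusted (Benjamini-Hochberg) over 14749 genes, and "passed" means an adjusted p under 0.05. The paper names DESeq2 for this step, so DESeq2 1.42.0 was an alternative, with its size factors, no count filter, fits of just the compared groups, a replicate block, a gene length offset, limma 3.58.1 on log2 FPKM with pseudocounts of 1 and 0.1, a fold change above 2 or below its inverse, unadjusted p-values and each replicate left out. Fits without C3, E1 and TE4 (high lymphocyte markers) and without T3 and T4 (high smooth muscle markers) were added after seeing the data. The 8 genes and all lists were chosen with earlier results of these data known. In each list, the genes that passed and up to 3 with the smallest p for T vs C or a main effect are named, and for each of the 8 genes the 3 with the highest correlation. The test was checked on simulated data. Positions are from GENCODE (GRCm39) and the short Dmd window, the other Utrn window and the motif background from RefSeq (listed for GRCm38.p6, both windows matched once in GRCm39). Figures were drawn with matplotlib 3.10.9. Values of some single genes of the lists are not reported here.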

Additional observations from a re-analysis of the deposited data

Results flagged for a closer look

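Among the 32 combinations of gene and group, 1 mouse stood apart. Sgca was at 185 CPM in TE3, above the other TE mice at 166 to 169, and chance alone marks about 1 in 20 such groups.

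For Nos1 the training effect pointed up in tumor-free mice and down in tumor-bearing mice, and the tumor effect pointed up in untrained and down in trained mice, in every mouse against the mean of its reference group. The interaction was -0.54 on the log2 scale and did not pass by edgeR (adjusted p = 0.389). Dag1 showed the same for the tumor effect, with an interaction of -0.31 (adjusted p = 0.438 by edgeR).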

How the results depend on the processing

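Among alternatives other than single left-out replicates, the log2 fold changes of the 8 genes kept direction and side of the threshold in 504 fits, turned in 20, passed newly in 7 and were lost in 5. The cause was not tested for any of these. The replicate numbers did not pair the mice, since same-numbered mice correlated at -0.241 to 0.214 over 24 pairs, 5 of them over 0.1, and 5 of 16 libraries were nearest to one of their own number. With the replicate block Nos1 passed in T vs C (adjusted p = 0.0316), the genes passing in E vs C went from 13 to 25, the T vs C calls of Nos2 and Trim72 and the tumor main effect call of Trim72 were lost, and no other call of a gene named here with an adjusted p under 0.05 was lost.

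Of all genes, 100 passed in T vs C, 34 in TE vs E, 201 for the tumor main effect, 13 in E vs C, 0 in TE vs T, 1 for the training main effect and 0 for the interaction. At an unadjusted p under 0.05 these became 2093, 1361, 2097, 2092, 867, 1586 and 1358, and with DESeq2 421, 178, 478, 236, 7, 89 and 20. With the fold change threshold they were 42 in T vs C, 11 in TE vs E, 54 for the tumor main effect and 7 in E vs C. Without the filter on low counts they were 174 in T vs C, 69 in TE vs E, 45 in E vs C, 3 in TE vs T and 17 for the training main effect, and with DESeq2 size factors 21 in E vs C. With only the groups compared they were 30 in T vs C, 96 in TE vs E and 183 in E vs C. With limma on log2(FPKM + 1) they were 27 in T vs C, 8 in E vs C and 3 for the training main effect, and on log2(FPKM + 0.1) 43, 6 and 3, with 20 in TE vs E. Without C3, E1 and TE4 they were 46 in T vs C, 16 in TE vs E, 75 for the tumor main effect, 4 in E vs C and 0 for the training main effect. Without T3 and T4 they were 23 in T vs C, 105 in TE vs E, 193 in E vs C and 119 for the training main effect. With 1 replicate left out they ran from 16 (without C4) to 255 (without T2) in T vs C, 18 to 69 in TE vs E, 130 to 281 for the tumor main effect, 0 to 127 in E vs C, 0 to 2 in TE vs T, 1 to 104 for the training main effect and 0 to 1 for the interaction.

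Of the 8 genes, 1 passed in T vs C and 0 elsewhere. At an unadjusted p under 0.05 there were 3 in T vs C, 2 for the tumor main effect, 2 in E vs C, 1 in TE vs T, 1 for the training main effect and 2 for the interaction. In T vs C there were 0 with the fold change threshold, only the groups compared, the gene length offset, limma with either pseudocount or without C3, E1 and TE4. In E vs C there were 2 with DESeq2, 1 with only the groups compared and 2 without T3 and T4. There was 1 for the training main effect without T3 and T4 and 1 for the interaction with DESeq2. With 1 replicate left out there were 0 to 1 in T vs C, E vs C and the training main effect.

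The turned log2 values were all small. Without T3 and T4 they were 0.0065 for Sgcb and -0.084 for Utrn in T vs C, -0.0083 for Dag1 in the tumor main effect, 0.047 for Dmd in TE vs T and 0.046 for Sgcd in the training main effect. Without C3, E1 and TE4 they were 0.0023 for Dtna in T vs C and 0.018 for Sgcb and 0.072 for Sgcd in the training main effect. With limma and pseudocounts of 1 and 0.1 they were -0.0088 and -0.0090 for Dmd in TE vs E, -0.0236 and -0.0240 for Dag1 and -0.0105 and -0.0116 for Dtna in the tumor main effect, and 0.0270 and 0.0277 for Sgcb and 0.0116 and 0.0133 for Sgcd in the training main effect. With the replicate block they were 0.0037 for Utrn in the tumor main effect and 0.0013 for Sgcb in the training main effect. With 1 replicate left out, Sgcb ran from -0.073 to 0.015 and Dtna from -0.067 to 0.053 in T vs C, and Dmd from -0.050 to 0.108 in TE vs E. For the tumor main effect Dag1 ran from -0.010 to 0.048, Utrn from -0.075 to 0.039 and Dtna from -0.0014 to 0.056, and for the training main effect Sgcb from -0.020 to 0.026 and Sgcd from -0.065 to 0.044.

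With 4 mice a group, the SE of a log2 difference in T vs C was 0.0607 for Sgcb to 0.145 for Utrn, although each of the 8 genes had at least 1251 counts per library. Differences of about that size cannot be resolved here, and clearly larger ones can also fail to pass. An example is Dmd at 0.31 (SE 0.102, adjusted p = 0.171 by edgeR).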
